A study of Homo sapiens with 4 samples.

Results

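The mRNAs described here are those of the translation initiation factors, taken as every protein-coding gene whose GENCODE v44 symbol starts with EIF followed by a digit from 1 to 6, and joined to the table of counts by Ensembl identifier. There were 56 such genes among the 63677 genes of the table, and they fell into 12 groups by complex or role. Of the 56, 52 had enough counts to be among the 14645 genes tested. In the ORC1-FLAG immunoprecipitate, 13 of the 52 mRNAs were enriched over nuclear Input RNA, against 10.5% of all genes tested, and 6 were depleted, a share near the 8.30% of all genes. The median Input level of the EIF mRNAs was above that of all genes tested, and the part of level in the numbers called was not tested. The enriched mRNAs encode EIF4G1, EIF4G3, EIF3A, EIF3B, EIF3C, EIF3D, EIF3G, the beta subunit of EIF2, EIF2A, the kinase EIF2AK4 and 3 of the 5 subunits of EIF2B, whereas the depleted mRNAs encode the cap-binding proteins EIF4E and EIF4E3, the EIF4E inhibitor EIF4EBP2, EIF5A2, EIF6 and the gamma subunit of EIF2.

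The study asked which RNAs are bound by ORC1, a subunit of the origin recognition complex, which marks the start sites of DNA replication. RNA immunoprecipitation followed by sequencing (RIP-seq) was done in nuclear lysates of HCT116, a human colorectal carcinoma line. All 4 libraries came from asynchronous cells transfected for 48 h with the plasmid pcDNA3.1-ORC1-3xFLAG, so the Input cells carried the tagged protein as well. The ORC1-FLAG IP group held RNA recovered with the anti-FLAG antibody M2 without crosslinking, and the Input group held the RNA of the nuclear lysate, each as RIP replicates 1 and 2. Expression of the tagged protein was transient and came from a plasmid. A control antibody library and untransfected cells were not analysed here, so that RNA held by the beads or the antibody cannot be told apart from RNA held by ORC1-FLAG.

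Translation of most eukaryotic mRNAs starts when the cap-binding factor EIF4E, the scaffold EIF4G and the helicase EIF4A recruit the small ribosomal subunit, which carries EIF3, EIF1, EIF1A, EIF5 and a ternary complex of EIF2, GTP and initiator methionyl-tRNA. After the start codon is recognised, EIF5 promotes hydrolysis of the GTP, EIF5B helps the large subunit to join, and EIF2B exchanges GDP for GTP on EIF2 for the next round. Kinases that phosphorylate the alpha subunit of EIF2 slow this exchange under stress. The proteins act mainly in the cytoplasm, whereas the values below describe their mRNAs in nuclear extracts.

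The libraries held 27483148 and 20280445 counts in IP replicates 1 and 2, and 14677002 and 9213877 counts in Input replicates 1 and 2. Levels are given as scaled CPM, that is counts relative to library size after TMM scaling (trimmed mean of M values), and differences as log2 of IP over Input. A gene was called when its Benjamini-Hochberg adjusted p was below 0.05 in edgeR's quasi-likelihood test, enriched if its log2 fold change was over 1 and depleted if it was under -1. The 5 epithelial markers of the line were present at 46.8 to 2055 scaled CPM, whereas of 6 markers of other cell types PECAM1 and CD3E were at 0 in every library and COL1A1 was the highest, at 7.90 to 26.7 scaled CPM. ORC1, transfected in all samples, was counted at 1108 and 18551 scaled CPM in the IP and at 333 and 5063 in the Input, so replicate 2 carried far more of it than replicate 1. The nuclear RNA MALAT1 was also higher in replicate 2, at 758 and 4084 scaled CPM in the Input libraries, and whether these differences between replicates moved any value below was not tested. In bulk libraries such as these, more nuclei holding an mRNA and more mRNA per nucleus cannot be told apart.

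Of the 52 mRNAs tested, 13 were enriched (25.0%) against 10.5% of all genes tested and 11.9% of protein-coding genes tested. Depleted mRNAs numbered 6 (11.5%) against 8.30% of all genes and 8.25% of protein-coding genes. The other 33 passed neither rule. The EIF mRNAs had a median Input level of 129.7 scaled CPM, against 19.2 for all genes tested and 25.2 for protein-coding genes. A higher count makes a call easier to reach, and the part of level in these shares was not tested. With an unadjusted p below 0.05 and the same fold minimum, the 13 enriched were joined by no other mRNA, and EIF1AX and EIF2S3B were added to the 6 depleted ones. The median log2 fold change of the 52 was 0.26, beside 0.01 over all genes tested and 0.08 over protein-coding genes, and the medians of their log2 IP to Input ratios were 0.24 (replicate 1) and 0.20 (replicate 2). Values of both IP libraries lay above both Input libraries for 20 of the mRNAs (38.5%, against 33.2% of all genes) and below both for 14 (26.9%, against 31.9%). When each library was left out in turn, enriched mRNAs numbered between 9, without IP replicate 1 (8.04% of all genes) or Input replicate 2 (9.23%), and 15, without Input replicate 1 (11.9%). Depleted mRNAs numbered 3 without IP replicate 2 (6.65% of all genes) and 10 without Input replicate 2 (11.8%), and the median turned to -0.02 when IP replicate 1 was left out, level with the -0.02 of all genes in that fit, and to -0.11 when Input replicate 2 was, against -0.04 of all genes.

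**Figure D1:**
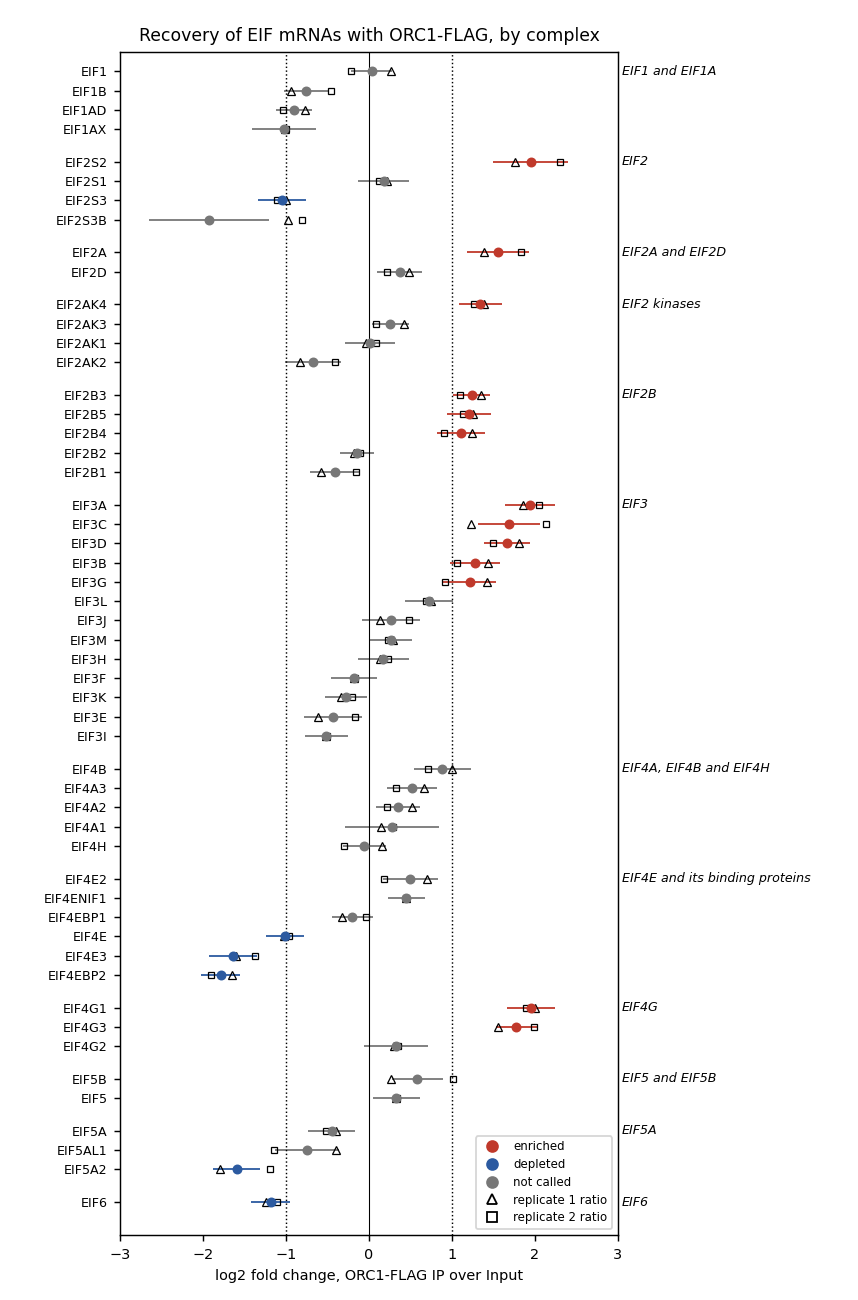
Log2 fold change of ORC1-FLAG IP over Input (horizontal axis) for the 52 EIF mRNAs tested, one row each, grouped by complex. Filled circles are the edgeR estimates with bars of 1 standard error (SE), coloured by call, open symbols are the log2 ratios of replicates 1 and 2 in scaled CPM with a pseudocount of 0.5, and dotted lines mark -1 and 1. The 13 enriched mRNAs lie in the EIF2, EIF2A, EIF2 kinase, EIF2B, EIF3 and EIF4G groups, and the 6 depleted ones in the EIF2, EIF4E, EIF5A and EIF6 groups.

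The RIP replicates ranked the EIF mRNAs alike. Over the 52, the log2 ratios of IP to Input of replicates 1 and 2 correlated at Pearson r = 0.938 and Spearman rho = 0.932, given as a description since genes are not independent replicates, beside r = 0.873 and rho = 0.879 over 12534 protein-coding genes. The sign was the same in both replicates for 49 of the 52. In 11 of the 13 enriched mRNAs both ratios were above 1, the exceptions being EIF3G and EIF2B4, whose replicate 2 ratios were each 0.91. In 4 of the 6 depleted mRNAs both ratios were below -1, and in the remaining ones a single ratio stood just above -1, that of EIF4E in replicate 2 (-0.97) and that of EIF2S3 in replicate 1 (-0.996).

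**Figure D2:**
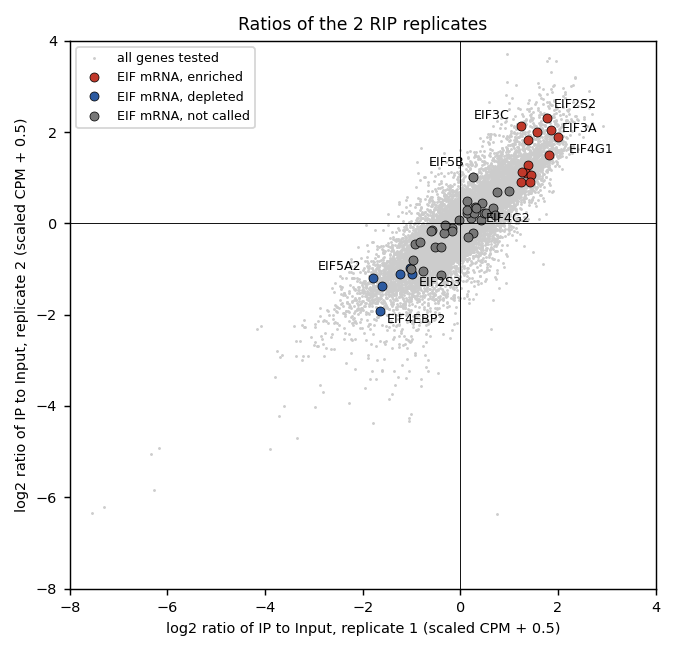
Log2 ratio of IP to Input in replicate 1 (horizontal axis) and replicate 2 (vertical axis), in scaled CPM with a pseudocount of 0.5, with grey dots for all 14645 genes tested and large circles for the 52 EIF mRNAs coloured by call. The enriched EIF mRNAs sit in the upper right, with ratios of at least 0.91 in both replicates, and EIF5B stands off the diagonal, at 0.26 in replicate 1 and 1.01 in replicate 2.

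Tandem GAA units, a sequence that the study examined in ORC1-bound RNAs of these same experiments, occurred in the coding sequences of several of these mRNAs. A run of at least 3 units (GAAGAAGAA, read on the mRNA strand) was present in 11 of the 56 genes. The windows of 30 bases below, from the canonical GENCODE v44 transcripts on GRCh38, show a run in capitals in the 5 enriched mRNAs that hold one. They are followed by 3 of the mRNAs that hold a run and were not called. Windows of EIF5 and EIF4ENIF1, which hold a run and were not called, and of EIF3CL, which was not tested, are not shown. One window is shown per mRNA, although EIF3C, EIF4G2 and EIF5B hold more than 1 run.
EIF4G1: aggaaatgGAAGAAGAAGAAGAAgaggaag
EIF3D: aggaagaagagGAAGAAGAAgaggaagaaa
EIF3C: gataaggaaggGAAGAAGAAgatgaacaag
EIF2S2: gaagaaaaaGAAGAAGAAGAAgccttttat
EIF2B4: aagaaacagcaGAAGAAGAAacggaaggaa
EIF5B: aggaagaagagGAAGAAGAAgatgaagaaa
EIF4G2: gaaactgctGAAGAAGAAGAAtcagaggaa
EIF3J: aaagccaaaaaGAAGAAGAAaggtgtggtt
The EIF4G1 window lies in exon 10 (chr3:184321948-184321977, plus strand) and holds the longest run, 5 units. The EIF3D window joins exons 14 and 15 (chr22:36510992-36511523, minus strand), within the last codons, and shares its first 22 bases with the EIF5B window in exon 10 (chr2:99376404-99376433, plus strand). Further EIF5B runs start at bases 829, 1060 and 1477 of the coding sequence, and their windows share the first 1, 2 and 0 bases with that of EIF3D. Further runs start at base 591 in EIF3C and at base 2584 in EIF4G2. The others are in exon 5 of EIF3C (chr16:28714330-28714359, plus strand), exon 2 of EIF2S2 (chr20:34105490-34105519, minus strand), exon 3 of EIF2B4 (chr2:27369469-27369498, minus strand), exon 22 of EIF4G2 (chr11:10797828-10797857, minus strand) and exon 8 of EIF3J (chr15:44561024-44561053, plus strand). In the frame of translation the run reads as AAG codons for lysine in EIF3C, EIF2S2, EIF2B4 and EIF3J, and as GAA codons for glutamate in EIF4G1, EIF3D, EIF5B and EIF4G2.

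The EIF4G scaffolds gave the highest median log2 fold change of the groups with 3 or more mRNAs tested, 1.78 over the 3 genes. It was lower, at 1.62, with upper quartile scaling and at 1.19 with library size as the only scaling. EIF4G1 (ENSG00000114867, chr3:184314495-184335358), which bridges the cap-binding protein, the helicase and EIF3, was counted at 3378 and 3051 scaled CPM in IP replicates 1 and 2, and at 841 and 818 in Input replicates 1 and 2. EIF4G3 (ENSG00000075151, chr1:20806292-21177285), its paralog with a similar role, had 245 and 272 scaled CPM in the IP and 82.9 and 68.0 in the Input. Both mRNAs were thus higher in each IP library than in either Input library, as were all 13 enriched EIF mRNAs and 33.2% of all genes tested. Both were enriched, against 10.5% of all genes, EIF4G1 by 1.95 ± 0.29 (log2, SE, n = 2 and 2; edgeR adjusted p = 0.0108) and EIF4G3 by 1.78 ± 0.25 (edgeR adjusted p = 0.0106). EIF4G2, a shorter relative that lacks the binding site for EIF4E, was abundant as well, with 1947 and 1185 scaled CPM in the IP and 1581 and 926 in the Input. Its groups overlapped, and the log2 fold change was 0.32 ± 0.39 (edgeR adjusted p = 0.582).

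EIF3, the multi-subunit factor that binds the small ribosomal subunit and EIF4G, contributed 14 genes, of which 13 were tested and 5 were enriched, against 10.5% of all genes, while none was depleted, against 8.30%. EIF3A (ENSG00000107581, chr10:119033670-119080817), the largest subunit and a core of the assembly, was counted at 2675 and 2368 scaled CPM in the IP against 738 and 571 in the Input. EIF3D (ENSG00000100353, chr22:36510855-36529184), a subunit that can contact the cap of some mRNAs, had 1657 and 1332 in the IP against 471 and 473 in the Input. EIF3B, a scaffold of the peripheral module, had 1383 and 934 against 509 and 448. None of these genes overlapped between IP and Input, as none of the 13 enriched EIF mRNAs did, and 33.2% of all genes tested had both IP above both Input. The log2 fold changes were 1.95 ± 0.30 for EIF3A (edgeR adjusted p = 0.0116), 1.66 ± 0.28 for EIF3D (0.0130) and 1.28 ± 0.30 for EIF3B (0.0275). EIF3G, an RNA-binding subunit of the same module as EIF3B, had 417 and 244 scaled CPM in the IP and 155 and 129 in the Input, a log2 fold change of 1.22 ± 0.32 (edgeR adjusted p = 0.0365). EIF3C, a core subunit, was counted at only 15.4 and 14.5 scaled CPM in the IP and at 6.24 and 2.91 in the Input, with a log2 fold change of 1.68 ± 0.37 (edgeR adjusted p = 0.0230). These values of EIF3C rest on 320, 255, 109 and 34 counts, and its coding sequence of 2739 bases matches that of the neighbouring copy EIF3CL at 100% of the aligned bases. EIF3CL had 2 and 2 counts in the IP and 1 and 0 in the Input, so the level of both genes depends on how reads with several alignments were counted.

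The remaining 8 EIF3 subunits tested were not called. Their log2 fold changes ran from -0.52 ± 0.26 for EIF3I (edgeR adjusted p = 0.191), a small propeller-shaped subunit, to 0.72 ± 0.29 for EIF3L (0.109). EIF3I was at 297 and 244 scaled CPM in the IP and 426 and 347 in the Input, with both IP libraries below both Input libraries. EIF3E (-0.44), EIF3K (-0.28), EIF3F (-0.18), EIF3H (0.17), EIF3M (0.26) and EIF3J (0.27) lay between. The median of the 13 was 0.27 and turned to -0.34 with library size as the only scaling. The calls of EIF3B and EIF3G did not hold without IP replicate 1, at log2 fold changes of 1.01 and 0.82, or without Input replicate 2, at 1.03 and 0.94. They also did not hold with library size as the only scaling, at 0.66 and 0.59. A fit with a library left out has less power, which was not told apart from dependence on that library.

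**Figure D3:**
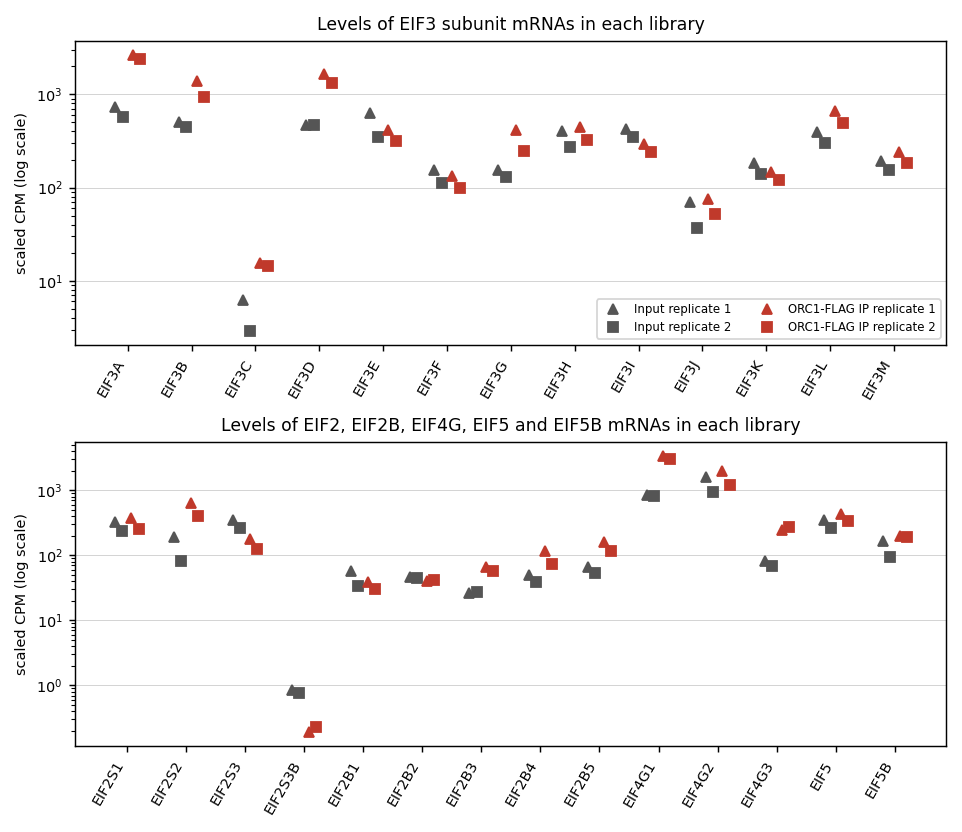
Scaled CPM on a log axis for each mRNA tested of the EIF3 complex (upper panel) and of EIF2, EIF2B, EIF4G, EIF5 and EIF5B (lower panel), with grey symbols for Input and red for ORC1-FLAG IP, triangles for replicate 1 and squares for replicate 2. EIF3A stands at 2675 and 2368 in the IP against 738 and 571 in the Input, whereas the IP and Input symbols of EIF3H and EIF4G2 overlap.

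The subunits of EIF2, the trimer that delivers the initiator tRNA, did not share a direction. EIF2S2 (ENSG00000125977, chr20:34088309-34112243), the beta subunit, was counted at 646 and 404 scaled CPM in the IP against 190.1 and 81.7 in the Input. EIF2S1, the alpha subunit that the stress kinases phosphorylate, had 378 and 254 in the IP and 325 and 234 in the Input, so its groups overlapped. EIF2S3 (ENSG00000130741, chrX:24054946-24078810), the gamma subunit that binds GTP and the tRNA, had 175 and 123 in the IP and 349.7 and 266 in the Input. EIF2S2 was enriched by 1.95 ± 0.45 (log2, SE, n = 2 and 2; edgeR adjusted p = 0.0259), EIF2S1 was not called at 0.18 ± 0.31 (0.710), and EIF2S3 was depleted, with -1.04 ± 0.29 (0.0420). The replicate ratios of the 3 genes did not overlap, at 1.76 and 2.30 for EIF2S2, 0.22 and 0.12 for EIF2S1, and -0.996 and -1.11 for EIF2S3. The difference between the genes was not tested. The call of EIF2S3 did not hold without IP replicate 2 (-0.77, edgeR adjusted p = 0.239), without Input replicate 1 (-0.79, 0.0944), with RLE size factors (-1.07, 0.0521) or without a count filter (-1.08, 0.0603). EIF2S3B, a copy with 98.2% identity to EIF2S3 in the coding sequence, had only 4 and 4 counts in the IP and 15 and 9 in the Input, with a log2 fold change of -1.93 ± 0.73 (edgeR adjusted p = 0.0964). It was called depleted in the fit with the replicate number as a block (-1.94, edgeR adjusted p = 0.0130), and reads of EIF2S3 and EIF2S3B may be hard to assign.

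EIF2A and EIF2D, 2 single-chain proteins that can bring tRNA to the ribosome apart from EIF2, had different values. EIF2A had 449 and 321 scaled CPM in the IP and 171.5 and 89.6 in the Input, both IP libraries being higher, and was enriched by 1.56 ± 0.37 (edgeR adjusted p = 0.0276). EIF2D had 71.8 and 48.5 in the IP against 51.4 and 41.5 in the Input, with a log2 fold change of 0.37 ± 0.27 (edgeR adjusted p = 0.352). The EIF2D groups overlapped.

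EIF2B, the exchange factor of EIF2, is built of 5 subunits. The mRNAs of the gamma, delta and epsilon subunits were enriched and those of the alpha and beta subunits were not called. Of all genes tested, 10.5% were enriched. EIF2B3 (gamma) had 67.3 and 58.1 scaled CPM in the IP and 26.2 and 27.0 in the Input. EIF2B4 (delta) had 117 and 74.5 against 49.1 and 39.5, and EIF2B5 (epsilon), the catalytic subunit, had 160.5 and 117 against 66.8 and 53.4. In each of the 3 genes both IP libraries were above both Input libraries, as in all 13 enriched EIF mRNAs and in 33.2% of all genes tested. The log2 fold changes were 1.24 ± 0.22 for EIF2B3 (edgeR adjusted p = 0.0139), 1.11 ± 0.29 for EIF2B4 (0.0353) and 1.21 ± 0.27 for EIF2B5 (0.0226). EIF2B1 (alpha) had 38.3 and 30.6 scaled CPM in the IP and 57.4 and 34.1 in the Input, which overlapped, with a log2 fold change of -0.41 ± 0.30 (edgeR adjusted p = 0.354), and EIF2B2 (beta) had a log2 fold change of -0.14. The median of the 5 was 1.11 and remained above 0 in every scaling, its lowest value being 0.49 with library size alone. None of the 3 calls held with library size alone, at 0.63 for EIF2B3, 0.49 for EIF2B4 and 0.60 for EIF2B5. That of EIF2B4 also did not hold with upper quartile scaling (0.93). EIF2B4 and EIF2B5 were not called without IP replicate 1 (0.79 with edgeR adjusted p = 0.170 and 1.01 with 0.0667) or without Input replicate 2 (0.81 with 0.0626 and 0.90 with 0.0436).

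Among the 4 kinases of EIF2 alpha, only EIF2AK4 (GCN2), the sensor of uncharged tRNA, was called. It had 333 and 258 scaled CPM in the IP and 127 and 107 in the Input, with no overlap, and was enriched by 1.34 ± 0.26 (edgeR adjusted p = 0.0170). EIF2AK1 (HRI), the haem-regulated kinase, was nearly level, with 154 and 110.0 in the IP, 157 and 104 in the Input and a log2 fold change of 0.01 ± 0.30 (edgeR adjusted p = 0.981). EIF2AK3 (PERK), the kinase of the endoplasmic reticulum, had 26.0 and 23.1 in the IP and 19.2 and 21.8 in the Input, a log2 fold change of 0.26 ± 0.22 (0.433). EIF2AK2 (PKR), which senses double-stranded RNA, had 80.7 and 59.2 in the IP and 144 and 78.8 in the Input, a log2 fold change of -0.67 ± 0.34 (0.190). The difference between EIF2AK4 and the other kinases was not tested.

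None of the 5 mRNAs of the helicase EIF4A and its cofactors EIF4B and EIF4H was called by edgeR, DESeq2 or limma voom. EIF4B, which stimulates the helicase, had 1143 and 680 scaled CPM in the IP and 572 and 415 in the Input. Both IP libraries were above both Input libraries, but the log2 fold change of 0.88 ± 0.35 missed both thresholds (edgeR adjusted p = 0.106). It passed them without IP replicate 2 (1.26, edgeR adjusted p = 0.0270) and also when Input replicate 1 was left out (1.17, 0.0379). EIF4H had 315 and 231 in the IP and 283 and 284 in the Input, the lowest log2 fold change of the group, -0.05 ± 0.26 (edgeR adjusted p = 0.903). EIF4A2 (0.35) and EIF4A3 (0.52), a component of the exon junction complex, lay between. EIF4A1 rested on 63 and 136 counts in the IP and 47 and 73 in the Input, with a log2 fold change of 0.28, and 47.4% of its exonic bases are shared with other genes annotated on the same strand, so its low level here is uncertain.

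The cap-binding proteins and their partners held 3 of the 6 depleted mRNAs and no enriched one, among 6 tested of 8. Of all genes tested, 8.30% were depleted and 10.5% enriched. The median coding length of the group was 661.5 bases, and 21.5% of protein-coding genes with coding sequences under 1000 bases were depleted. EIF4EBP2 (ENSG00000148730, chr10:70404145-70428618), a repressor that holds EIF4E away from EIF4G, was counted at 26.2 and 20.2 scaled CPM in the IP and at 83.0 and 77.3 in the Input. EIF4E itself had 27.998 and 24.2 in the IP and 57.4 and 47.8 in the Input, and its relative EIF4E3 had 2.98 and 3.19 against 10.1 and 9.07. Each IP library was below each Input library for all 3 genes, as for all 6 depleted EIF mRNAs and 31.9% of all genes tested. EIF4EBP2 fell by 1.79 on the log2 scale (SE 0.24, edgeR adjusted p = 0.0105), a 3.46-fold lower level, EIF4E3 by 1.64 (SE 0.29, 0.0139) and EIF4E by 1.01 (SE 0.23, 0.0243). The call of EIF4E was at the edge of the fold minimum and did not hold with DESeq2 (-0.99, adjusted p = 0.0332), nor with edgeR without IP replicate 1 (-1.08, adjusted p = 0.0727), without IP replicate 2 (-0.86, 0.127) or without Input replicate 1 (-0.83, 0.0400). EIF4E2, a cap-binding relative linked to repression, had the highest value of the group, 104 and 56.5 scaled CPM in the IP and 64.0 and 49.98 in the Input, which overlapped, with a log2 fold change of 0.50 ± 0.33 (edgeR adjusted p = 0.309). EIF4ENIF1, the nuclear import partner of EIF4E, was at 0.45 and EIF4EBP1 at -0.20, neither being called. EIF4E1B, with 4 and 2 counts in the IP and 2 and 3 in the Input, and EIF4EBP3, with 3 and 4 against 0 and 1, had too few counts to be tested.

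EIF1 and EIF1A are small factors that help to select the start codon. In the group of genes placed with them by symbol, EIF1AD included, none of the 4 mRNAs tested passed the rule. EIF1 had 255 and 199 scaled CPM in the IP and 213 and 231 in the Input, which overlapped, with a log2 fold change of 0.03 ± 0.25 (edgeR adjusted p = 0.939). EIF1AX had 30.6 and 17.0 in the IP against 62.4 and 34.6 in the Input, both IP libraries being lower, with a log2 fold change of -1.03 ± 0.38 (edgeR adjusted p = 0.0959). Its log2 ratio was -1.01 in replicate 1 and -1.002 in replicate 2, and the fit that blocks on replicate called it depleted (-1.02, edgeR adjusted p = 4.92e-05). So did edgeR with library size as the only scaling (-1.64, adjusted p = 0.0151), upper quartile scaling (-1.20, 0.0429) or no count filter (-1.08, 0.0259). Its value was -1.47 without IP replicate 1 and -1.54 without Input replicate 2, against -0.62 without IP replicate 2 and -0.50 without Input replicate 1. EIF1AD had a log2 fold change of -0.90 with an edgeR adjusted p of 0.0299, under the fold minimum, and EIF1B was at -0.76 (0.0854). The fifth gene of the group is Y-linked, did not pass the count filter and is not described.

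None of the mRNAs of EIF5, EIF5B, the EIF5A group and EIF6 was enriched. EIF5, the activator of the EIF2 GTPase, had 433 and 331 scaled CPM in the IP and 346 and 261 in the Input, which overlapped, with a log2 fold change of 0.33 ± 0.28 (edgeR adjusted p = 0.425). EIF5B, the GTPase of subunit joining, had 197 and 190.0 in the IP and 164 and 93.9 in the Input, with a log2 fold change of 0.58 ± 0.31 (edgeR adjusted p = 0.212). Both IP values of EIF5B were above both Input values, and the spread lay in the Input, so that the gene was called enriched without Input replicate 1 (1.08, edgeR adjusted p = 0.0248). EIF5A2 (ENSG00000163577, chr3:170888418-170908644), a homolog of the hypusinated factor EIF5A, had 6.24 and 6.49 in the IP and 23.0 and 15.4 in the Input, and it fell by 1.59 on the log2 scale (SE 0.28, edgeR adjusted p = 0.0139). EIF5A itself had 287 and 207 in the IP and 378 and 296 in the Input, with a log2 fold change of -0.45 ± 0.28 (edgeR adjusted p = 0.285). EIF5AL1, whose coding sequence is 98.9% identical to that of EIF5A, was at -0.75 and was not called. EIF6, which keeps the large ribosomal subunit from joining too early, had 65.5 and 60.5 in the IP and 155 and 131 in the Input, and was depleted by -1.19 ± 0.23 (edgeR adjusted p = 0.0170). Without IP replicate 2 the value of EIF6 was -1.08 (edgeR adjusted p = 0.0619).

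Between genes, levels can be compared only per length. Per kilobase of exonic length, the highest Input values were those of EIF4G2 (186 and 109 scaled CPM per kilobase in replicates 1 and 2), EIF5A (141 and 110.3) and EIF3D (123 and 124), and neighbours in this order overlapped. EIF4G1 (96.1 and 93.4) and EIF3A (104 and 80.5) followed and overlapped with each other, and both lay below EIF3D in each replicate. In the IP the order was led by EIF3D (435 and 349), EIF4G1 (386 and 349) and EIF3A (377 and 334), also with overlap, followed by EIF2S2 (253 and 158) and EIF4G2 (229 and 140). Over the 52 mRNAs the log2 fold change and the log2 Input level had a Spearman rho of 0.28.

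A property that tracked the fold change among these mRNAs was the length of the coding sequence. Spearman's rho of coding length and log2 fold change was 0.68 over the 52 EIF mRNAs, beside 0.59 over 12534 protein-coding genes, whereas with exonic length it was 0.23 and with the length of the longest transcript 0.09. The correlations are across genes that share libraries and depth, and are descriptive. Of the 11 EIF mRNAs with coding sequences of 2000 bases or more, 7 were enriched (63.6%, against 27.7% of 3959 protein-coding genes of that length). From 1000 bases to under 2000, 4 of 20 were enriched (20.0%, against 6.24%), and below 1000 bases 2 of 21 were (9.52%, against 2.55%). The enriched ones with coding sequences below 1000 bases were EIF2S2, of 999 bases, and EIF3G, of 960. Depleted mRNAs made up 5 of the 21 with coding sequences below 1000 bases (23.8%, against 21.5% of protein-coding genes). They made up none of the 11 with coding sequences of 2000 bases or more (0.43% of protein-coding genes of that length were). The mRNAs with coding sequences of 2000 bases or more that were not called were EIF2AK3, EIF4ENIF1, EIF4G2 and EIF5B. The only depleted mRNA with a coding sequence above 1000 bases was EIF2S3, of 1416 bases.

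**Figure D4:**
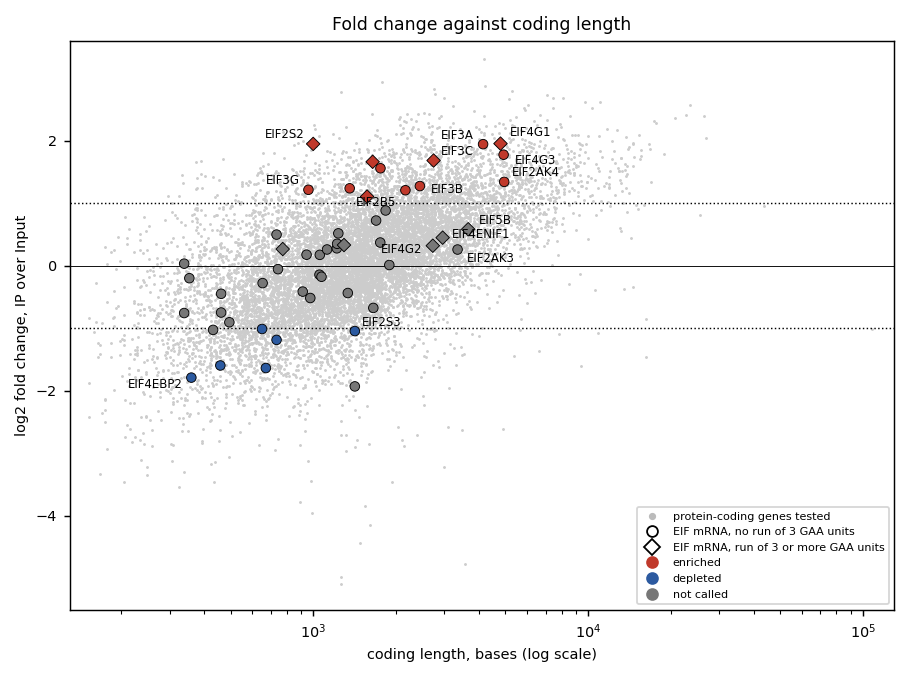
Log2 fold change of IP over Input (vertical axis) against coding length in bases (horizontal log axis), with grey dots for protein-coding genes tested and large symbols for the 52 EIF mRNAs, coloured by call, diamonds marking a run of at least 3 GAA units in the coding sequence. EIF mRNAs with coding sequences of 2000 bases or more lie between 0.26 and 1.95, 7 of 11 being enriched. EIF2S2, with a coding sequence of 999 bases, stands apart at 1.95.

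Of the 10 EIF mRNAs tested that hold a run of at least 3 GAA units in the coding sequence, some of them shown above, 5 were enriched and none was depleted. Those not called were EIF5B, EIF4G2, EIF3J, EIF5 and EIF4ENIF1. Without such a run, 8 of 42 were enriched and 6 depleted. Among protein-coding genes, 1.79% of those with a run and 9.15% of those without were depleted. Runs of this kind were present in 19.2% of the EIF mRNAs tested and in 12.5% of protein-coding genes, of which 35.2% were enriched, against 8.59% of protein-coding genes without a run. Coding sequences with a run were longer, with a median of 2182 bases against 1064 among the EIF mRNAs, and the share of length in these counts was not tested. The reverse complement TTCTTCTTC was in none of the 52 coding sequences and in 2.58% of those of protein-coding genes. EIF5B was richest in codons for lysine or glutamate, with 29.9% of its codons and 33 in the densest stretch of 50, and it was not called. EIF3J, with 27.5%, and EIF5, with 23.2%, were not called either, whereas EIF2S2, with 24.6%, was enriched. The largest number of lysine and glutamate codons in any stretch of 50 had a rho of 0.67 with the log2 fold change over the 52, beside 0.53 over protein-coding genes, and such a maximum can be larger in a longer coding sequence for its length alone. The share of lysine and glutamate codons over the whole coding sequence had a rho of 0.26 and the share of GAA codons one of 0.13.

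Other parts of the translation machinery gave the following counts in the same fit, to be read against 10.5% enriched and 8.30% depleted among all genes tested. Of 20 further initiation factors and regulators tested, 3 were enriched and 2 depleted, with a median log2 fold change of 0.37. The enriched ones were ABCF1 (1.59), a partner of EIF2, GCN1 (1.29), the activator of EIF2AK4, and the helicase DHX29 (1.27), and the depleted ones were DENR (-1.61) and MCTS1 (-1.58), which form a single complex related in function to EIF2D. Of 10 genes tested in a list of elongation and termination factors and genes of related name, 1 was enriched (EEF1A2, 1.08) and 1 depleted (EEF1E1, -1.28). The median of that list was 0.44, and of 10 mitochondrial translation factors 1 was enriched (MTIF3, 1.05), with a median of 0.43. Of the 20 cytosolic aminoacyl-tRNA synthetases, which charge tRNAs with amino acids, 11 were enriched and none depleted, with a median of 1.13 and a median coding length of 2074 bases, against 1219.5 for the EIF mRNAs. The medians of these lists were not tested against each other.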

How the data were processed

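RIP-seq was done in HCT116 nuclear lysates, with 2 ORC1-FLAG IP and 2 Input libraries. The deposited values were unnormalized counts of reads per gene. According to the methods of the study, RNA was treated with DNase, libraries were made with a stranded total RNA kit, and the authors used Trimmomatic to trim reads, STAR to align them to hg19 and featureCounts, with Ensembl genes, to count them. The Ensembl release, the strand setting and how multiply aligned reads were handled are not given in the sources used here. All 4 columns of counts were used.

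Symbols, coordinates and coding sequences (canonical transcripts) came from GENCODE v44 on GRCh38 and were joined by Ensembl identifier. All 56 EIF identifiers were in the table. Of the 14645 genes tested, 380 had no identifier in that release.

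Genes kept by filterByExpr were tested with edgeR 4.0.16 (R 4.3.3), quasi-likelihood with robust dispersion, TMM scaling and group as the only term, with Benjamini-Hochberg adjustment over all genes tested. The script was tested on simulated data. Each standard error is the log2 fold change over the root of its F statistic. Replicate ratios used a pseudocount of 0.5 scaled CPM. Labels give IP and Input the number of the same RIP replicate. Deviations from the group means of same-numbered libraries correlated at r = 0.647 across genes. The numbers were taken as pairs in the replicate ratios and in a fit that blocks on replicate, run beside the main fit. The main fit did not use the pairing, and it gave the standard errors and adjusted p wherever no other fit is named. The study describes the RIP replicates as duplicate experiments. Reads carry no molecular identifiers. Alternatives also included other scalings, count filters, DESeq2 1.42.0, limma voom (limma 3.58.1) and leaving out each library. Full values are given for called mRNAs, the highest and lowest of each group and the 4 kinases. The EIF genes, the lists and the sequence features were chosen with earlier results of these data known, and the study had itself examined GAA repeats and RNA length in them. The GAA runs were searched on both strands.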

Additional observations from a re-analysis of the deposited data

How the results depend on the processing

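Library size as the only scaling moved the median log2 fold change of all genes by -0.60, and under it 5 EIF mRNAs were enriched (EIF2S2, EIF3A, EIF3D, EIF4G1 and EIF4G3; 2.59% of all genes), 16 were depleted (22.2%) and their median was -0.35, 0.25 above that of all genes. This excess was 0.0047 without IP replicate 1 and -0.076 without Input replicate 2. Upper quartile scaling, which moved all genes by -0.17, gave 12 enriched (7.37% of all genes), 8 depleted (10.5%) and a median of 0.085. The median was 0.23 with a filter of 1 CPM in 2 libraries and 0.22 as a mean replicate ratio with a pseudocount of 1. The replicate block gave 13 enriched (13.4% of all genes) and 8 depleted mRNAs (13.4%) with a median of 0.25, the pairing adding EIF1AX and EIF2S3B and changing no other call. DESeq2 gave 13 and 5 (5.23% and 3.65% of the 31990 genes with a count), limma voom 13 and 6 (10.5% and 7.74%), RLE size factors 13 and 5 (9.75% and 8.62%), and the unadjusted p 13 and 8 (12.3% and 11.2%). Leaving out a library in turn gave 9 to 15 enriched, 3 to 10 depleted, medians of -0.11 to 0.43 (-0.02 without IP replicate 1) and a rho of coding length of 0.64 to 0.69. That rho was 0.60 without a count filter, 0.61 with DESeq2, 0.23 with exonic length and 0.089 with the longest transcript. Where 1 library was left in a group, it was assumed to vary like the other group. The causes of these shifts were not tested. EIF2S2, EIF3A, EIF3D, EIF4G1, EIF4G3, EIF4E3, EIF4EBP2 and EIF5A2 kept their calls in all 12 alternative fits, and none of the 19 called mRNAs changed sign in them. With 2 libraries a group, precision is lowest in members of few counts, such as EIF2S3B with 4 to 15 counts a library (SE 0.73).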

Other observations

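GENCODE v44 names 81 pseudogenes after these factors, copies whose reads can be hard to tell from those of the parent gene. Identifiers of 79 were in the table, 6 passed the count filter and edgeR, DESeq2 and limma voom called none of them by the adjusted rule, with 1, EIF2S2P4, passing in edgeR at an unadjusted p below 0.05. No library held more than 66 counts for any of them. The highest was EIF2S2P4, a copy of EIF2S2, with 66 and 42 counts in the IP and 17 and 7 in the Input, a log2 fold change of 1.79 ± 0.54 (edgeR adjusted p = 0.0524), beside 1.95 for EIF2S2. EIF4BP3, a copy of EIF4B, was at 1.25 ± 0.53 (edgeR adjusted p = 0.132), beside 0.88 for EIF4B.

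Introns of these genes also hold 15 small nucleolar RNA genes, of which 14 had an identifier in the table. These RNAs guide modification of ribosomal RNA and are released from introns of genes such as EIF4A1, EIF4A2 and EIF4G1. Of the 14, 9 were at 0 in every library and the highest count in any library was 25, so levels of these RNAs were not compared.

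In the coding sequence EIF4G1 and EIF4G3, both enriched, were identical at 67.9% of 4450 aligned bases. EIF5A and EIF5A2 were identical at 71.9% of 459 aligned bases, and EIF5A2 was depleted whereas EIF5A was not called, at -1.59 and -0.45. The difference between the genes of either pair was not tested.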
